A study of Mus musculus with 8 samples.

Results

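Chemokines are small secreted proteins that guide leukocytes along their gradients, and their receptors are membrane proteins coupled to inhibitory G proteins. They are grouped by the spacing of their leading cysteines into families named after that spacing, among them CC and CXC. In mammary tumors they are made by epithelial, stromal and immune cells alike and are best known for setting which macrophages, granulocytes and lymphocytes enter the tissue. The genes described here were taken from a list of 38 names of ligands and receptors. A gene was measured where a row of the deposited table is annotated with that gene alone, which gave 37 of the 38, with 27 ligands and 10 receptors, among 14996 rows annotated with exactly 1 gene and 23332 rows in all. Ccl6 is annotated only together with Ccl9 and so has no value here. No gene had more than 1 row of its own.

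Gene expression was measured on Affymetrix Mouse Exon 1.0 ST arrays in 8 mammary tumors, 4 each from MMTV-Wnt1 and MMTV-Wnt/ILK mice, with 1 array per tumor. MMTV-Wnt1 mice carry a Wnt1 transgene driven in the mammary epithelium by the long terminal repeat of the mouse mammary tumor virus, and MMTV-Wnt/ILK mice, bred from MMTV-Wnt1 and MMTV-ILK parents backcrossed to FVB, carry in addition a human ILK transgene under the same promoter. All 8 tumors therefore carry the Wnt1 transgene, all came from nulliparous females, and the ages of these 8 mice are not given in the sources used here. RNA came from whole snap-frozen tumors taken from the mammary fat pad, so fewer cells of a type and less RNA per cell cannot be told apart. Values are log2 expression after RMA, a method that subtracts background and combines several probes into 1 value per gene, and quantile normalization. A value belongs to its own probes, so levels of different genes are not ranked against each other. The Wnt1 row was at 10.52 ± 0.53 (SD, n = 4) without and 10.81 ± 0.23 (SD, n = 4) with ILK. Endogenous mouse Ilk differed by 0.14 (standard error, SE, 0.15), and its probes were not matched to the human transgene. Markers of luminal and of basal epithelium, 4 and 5 genes, were above the lower quartile in all 8 tumors.

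MMTV-Wnt1 tumor 3 stood apart in 2 of the marker lists. Interferon response genes averaged 2.66 above their mean over the 8 tumors on the log2 scale in this tumor, where the other 7 ran from -0.76 to -0.11. Fibroblast genes averaged -2.51 in it, where the others ran from -0.09 to 0.96. Of the 37 chemokine and receptor genes, 10 were lowest and 6 were highest in MMTV-Wnt1 tumor 3. Each of the other 7 tumors was lowest for 2 to 7 genes and highest for 2 to 8. MMTV-Wnt1 tumor 2 also stood apart in 2 lists. Adipocyte genes averaged 1.76 in that tumor, where the others ran from -0.50 to 0.01. Endothelial genes averaged 0.92 there, where the others ran from -0.33 to 0.10. For several results named below, the value without MMTV-Wnt1 tumor 3 is also given.

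Whether a gene is expressed was judged against the lower quartile of all rows on the same array, which ran from 5.50 to 5.62 over the 8 arrays. Of the 37 genes, 20 lay above it in all 8 tumors, 14 in some tumors and 3 in none. This is 54.1% of the genes, where 72.9% of all rows with exactly 1 gene lay above the lower quartile in all 8 tumors. Above the median of the array in all 8 tumors were the ligands Ccl9, Cxcl14, Cxcl16 and Cx3cl1 and the receptors Cxcr4 and Cx3cr1. The 3 genes below the lower quartile in every tumor were Ccl4, an inflammatory ligand made by macrophages and T cells, Cxcl5, a neutrophil attractant, and Cxcr5, the receptor that guides B cells into lymphoid follicles. Differences of genes near or below the lower quartile are uncertain in size, since background makes up more of such values.

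The contrast of the design, MMTV-Wnt/ILK minus MMTV-Wnt1, was fitted to all 23332 rows in limma, which fits a linear model to each row and moderates its variance by the others. The comparison asks which genes differ when the ILK transgene is added to Wnt1. Means were higher with ILK for 20 of the 37 genes and lower for 17, that is higher for 54.1% of the genes beside 45.3% of the rows, and the median log2 fold change was 0.09 beside -0.03 for the whole array. None of the 37 reached an adjusted p of 0.05 in limma (adjusted p = 0.905 to 0.996), and 0% of all rows reached it. At an unadjusted p under 0.05, 3 genes passed, Ccl11, Cxcl14 and Cxcr6, all higher in MMTV-Wnt/ILK tumors. This is 8.11% of the genes, where 5.11% of all rows passed, 2.91% in the higher and 2.21% in the lower direction. The share of the genes thus lay near that of the array. The groups did not overlap for Cxcl14, Cxcr6 and Ccl20, the first pair higher and the last lower with ILK, where 2.9% of all rows do not overlap, 1.47% higher and 1.42% lower. Without MMTV-Wnt/ILK tumor 4, Cxcl14 was the only 1 of the 37 at an unadjusted p under 0.05.

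**Figure D1:**
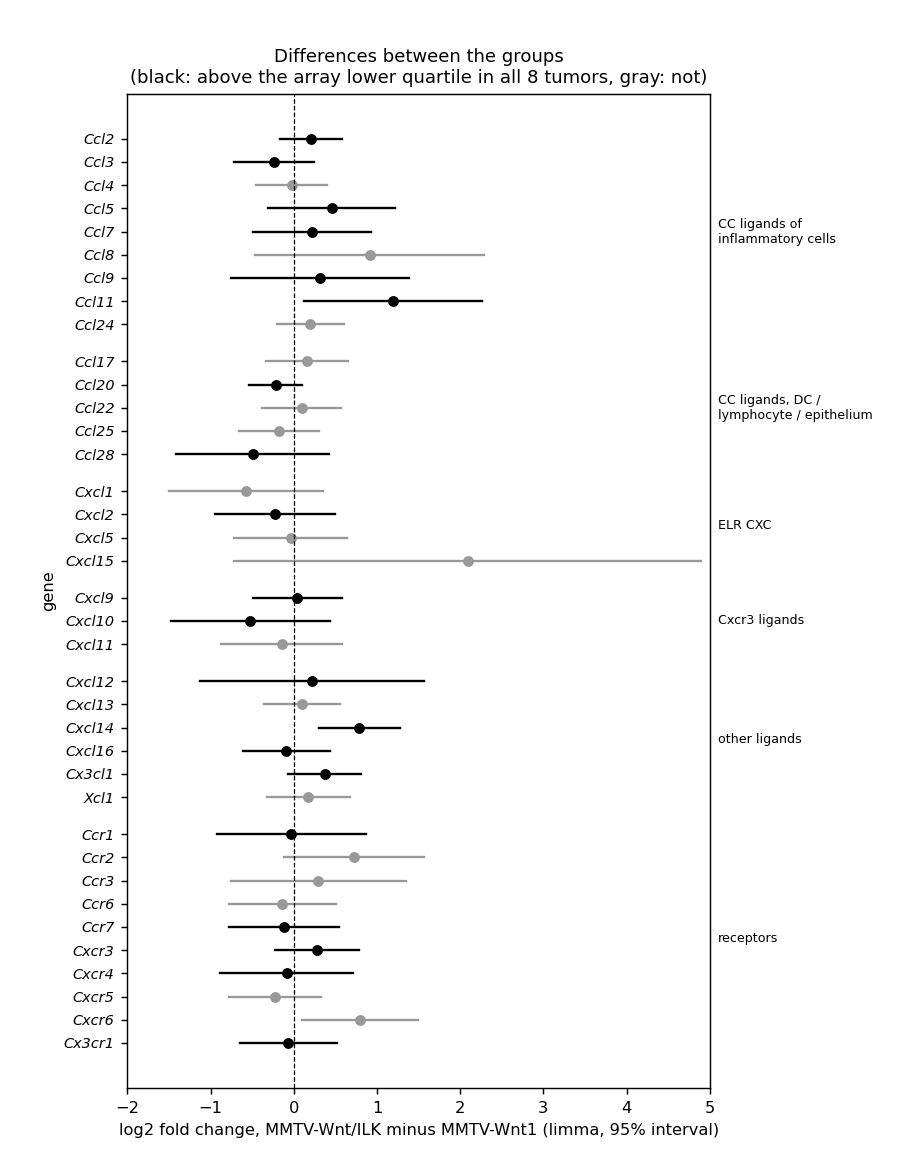
Log2 fold change of each of the 37 genes, MMTV-Wnt/ILK minus MMTV-Wnt1 (points), with the 95% interval from limma (lines), ordered by role. Black genes lay above the lower quartile of the array in all 8 tumors. The intervals of Ccl11, Cxcl14 and Cxcr6 lie above 0, those of all other genes include 0, and Cxcl15 has the widest, from -0.71 to 4.89.

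Cxcl14 encodes an epithelial and stromal CXC ligand that draws monocytes and dendritic cells. Its log2 values were 8.58, 8.88, 8.57 and 7.94 in MMTV-Wnt1 tumors 1 to 4 and 9.48, 9.09, 9.20 and 9.33 in MMTV-Wnt/ILK tumors 1 to 4. Every MMTV-Wnt/ILK tumor lay above every MMTV-Wnt1 tumor, and MMTV-Wnt1 tumor 4 was the lowest. The means were 8.49 ± 0.40 (SD, n = 4) and 9.28 ± 0.17 (SD, n = 4), and the log2 fold change was 0.79 (SE 0.21, 95% interval 0.30 to 1.27), or 1.72-fold (limma, unadjusted p = 0.00541 and adjusted p = 0.905). An exact permutation test, 2-sided and over all 70 ways to assign tumors to groups, gave p = 0.029, the smallest it can give. Over every alternative tried the log2 fold change stayed between 0.60 and 0.91 and the unadjusted p between 0.0027 and 0.0177, and the adjusted p ran from 0.418 to 0.9998. Fibroblast markers had higher means with ILK in 6 of 6 genes, with a median log2 fold change of 0.82 and with none at an unadjusted p under 0.05, but in 4 of 6 and with a median of 0.13 without MMTV-Wnt1 tumor 3. The mean log2 level of that list ran from 7.39 to 10.33 in MMTV-Wnt1 and from 9.81 to 10.87 in MMTV-Wnt/ILK tumors, and its part in the Cxcl14 difference was not tested. Without MMTV-Wnt1 tumor 3, the tumor with the lowest fibroblast genes, the Cxcl14 difference was 0.81.

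The promoters of Cxcl14 and of Cxcl10, a ligand of Cxcr3 described further on, are shown because Cxcl14 had the smallest unadjusted p of the 37 genes and Cxcl10 stood out in 1 tumor, and because they were the 2 of 26 matched genes with a match to the core letters of the interferon-stimulated response element. The 26 genes were matched by symbol to RefSeq promoters of GRCm38.p6. Each sequence is the 250 bases before the start, with matches on either strand in capitals, to the response element core (GAAA, 2 free bases, GAAA), the gamma-activated site TTCNNNGAA, the NF-kB consensus and the TATA box TATAAA. Overlapping matches were merged in the capitals.
Cxcl14 (chr13:56296552-56296801, minus strand): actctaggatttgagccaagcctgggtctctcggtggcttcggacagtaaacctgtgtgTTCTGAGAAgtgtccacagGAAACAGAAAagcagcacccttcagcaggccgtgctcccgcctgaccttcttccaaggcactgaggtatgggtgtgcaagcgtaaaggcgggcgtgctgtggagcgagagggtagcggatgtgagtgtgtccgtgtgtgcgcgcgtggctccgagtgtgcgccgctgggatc
Cxcl10 (chr5:92348890-92349139, minus strand): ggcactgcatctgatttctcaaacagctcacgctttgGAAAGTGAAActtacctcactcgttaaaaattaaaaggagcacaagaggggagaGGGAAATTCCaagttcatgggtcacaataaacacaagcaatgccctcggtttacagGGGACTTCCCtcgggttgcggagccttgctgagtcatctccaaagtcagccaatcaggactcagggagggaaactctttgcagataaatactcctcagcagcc
In Cxcl14 the capitals mark a gamma-activated site, beginning at position -191 from the start, and a response element core at -172. In Cxcl10 they mark a response element core at -213 and 2 NF-kB matches. The response element core occurs in 3.04% and the gamma-activated site in 7.18% of 27025 promoter windows of the same length, the NF-kB consensus in 3.75% and the TATA box in 13.0%. NF-kB matches were found for 6 of the 26 genes, Ccl9, Ccl20, Cxcl1, Cxcl2, Cxcl10 and Ccr3. These are matches of letters and not measured binding.

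Ccl11, or eotaxin, attracts eosinophils through Ccr3 and is a known product of fibroblasts. Its log2 values were 7.40, 8.08, 6.13 and 7.60 in MMTV-Wnt1 tumors 1 to 4 and 7.97, 7.84, 8.81 and 9.36 in MMTV-Wnt/ILK tumors 1 to 4. MMTV-Wnt/ILK tumors 3 and 4 lay above all MMTV-Wnt1 tumors, the other two fell inside the MMTV-Wnt1 range, and MMTV-Wnt1 tumor 3 was the lowest. The groups differed by 1.20 (SE 0.47, 95% interval 0.12 to 2.27; limma, unadjusted p = 0.0326 and adjusted p = 0.905; exact permutation test, p = 0.086). Without MMTV-Wnt1 tumor 3 it was 0.80 (limma, unadjusted p = 0.0754), and the unadjusted p was also above 0.05 without tumor 1 of MMTV-Wnt1, tumor 3 of MMTV-Wnt/ILK or tumor 4 of MMTV-Wnt/ILK, at log2 fold changes of 1.23, 1.09 and 0.91. MMTV-Wnt/ILK tumors 3 and 4 had the highest means of the fibroblast list, 0.47 and 0.96, and MMTV-Wnt1 tumor 3 had the lowest. MMTV-Wnt1 tumor 1 was close to MMTV-Wnt/ILK tumor 3 on that list, at 0.43, but had Ccl11 at 7.40. The relation of Ccl11 to that list and the part of the list in the Ccl11 difference were not tested. Its receptor Ccr3 lay above the lower quartile in 3 tumors and differed by 0.30 (SE 0.46), or by 0.030 without MMTV-Wnt1 tumor 3. Of 5 eosinophil and mast cell markers, 2 had a higher and 3 a lower mean (0 and 5 without MMTV-Wnt/ILK tumor 3). Epx was below the lower quartile in every tumor, and Cpa3 was above it in 2. The mean level of the list ran from 6.71 to 7.03 and from 6.66 to 7.27. That mean is raised by Kit, which ran from 11.73 to 12.28 in MMTV-Wnt1 and from 11.77 to 12.17 in MMTV-Wnt/ILK tumors. Ccl24, another ligand of Ccr3, lay above the lower quartile in 3 tumors and differed by 0.20 (SE 0.18).

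Ccl11 lies between Ccl2, Ccl7, Ccl12 and Ccl8 on chromosome 11 in the RefSeq order of genes. Ccl8, a ligand of monocytes and T cells, was at 7.09, 7.83, 5.22 and 8.13 in MMTV-Wnt1 tumors 1 to 4 and at 7.12, 8.31, 8.32 and 8.18 in MMTV-Wnt/ILK tumors 1 to 4. It was below the lower quartile in MMTV-Wnt1 tumor 3 alone, and MMTV-Wnt/ILK tumors 2, 3 and 4 exceeded the MMTV-Wnt1 range. The log2 fold change of 0.91 (SE 0.60, 95% interval -0.46 to 2.29) became 0.30 without MMTV-Wnt1 tumor 3. Ccl7, a monocyte ligand of Ccr2, was at 5.86 in MMTV-Wnt1 tumor 3 and from 6.66 to 7.46 in the other 7 tumors. Its log2 fold change of 0.22 (SE 0.31) became -0.076 without that tumor. Ccl2, the main ligand of Ccr2, kept within a narrow range, from 6.25 to 6.65 in MMTV-Wnt1 and from 6.35 to 6.78 in MMTV-Wnt/ILK tumors, and differed by 0.21 (SE 0.16).

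A second run of CC genes on chromosome 11 holds Ccl5, Ccl9, Ccl6, Ccl3 and Ccl4. Ccl9, a myeloid ligand of Ccr1 in mice, was at 8.73, 9.05, 7.09 and 8.46 in MMTV-Wnt1 tumors 1 to 4 and at 7.89, 8.59, 9.56 and 8.56 in MMTV-Wnt/ILK tumors 1 to 4. MMTV-Wnt1 tumor 3 was again the lowest and the groups overlapped, with a log2 fold change of 0.32 (SE 0.47) that became -0.10 without that tumor. Ccl5, a ligand made by T and NK cells and induced by inflammatory signals, went the other way in the same tumor. Its values were 5.68, 6.10, 7.24 and 5.78 in MMTV-Wnt1 tumors 1 to 4 and 6.59, 6.34, 6.95 and 6.73 in MMTV-Wnt/ILK tumors 1 to 4, so that MMTV-Wnt1 tumor 3 was the highest of all 8 and every MMTV-Wnt/ILK tumor lay above the other MMTV-Wnt1 tumors. The log2 fold change was 0.45 (SE 0.34). It was 0.80 without MMTV-Wnt1 tumor 3 (limma, unadjusted p = 0.00421 and adjusted p = 0.979) and 0.28 without MMTV-Wnt1 tumor 1. Ccl3, a ligand of Ccr1, ran from 6.91 to 7.80 and differed by -0.23 (SE 0.21). The Ccl3 difference was -0.12 without MMTV-Wnt1 tumor 3. It was -0.42 without MMTV-Wnt1 tumor 4, its lowest (limma, unadjusted p = 0.0410).

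**Figure D2:**
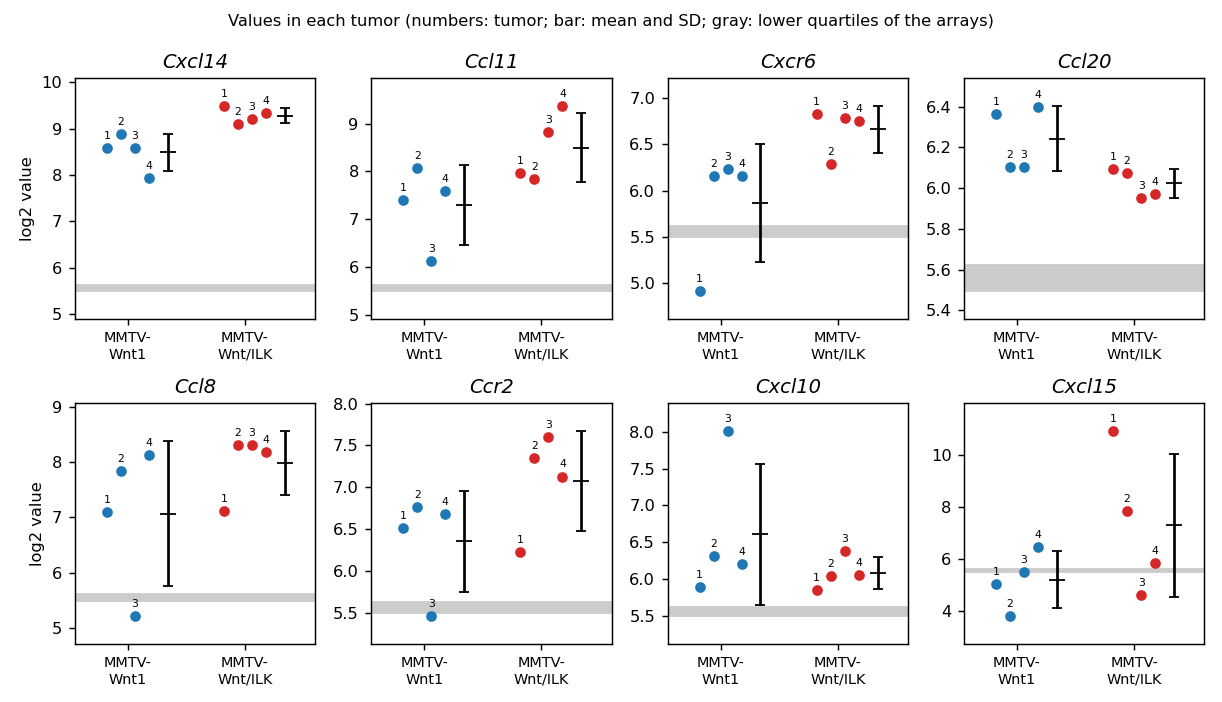
Log2 values of 8 genes in each tumor (points numbered by tumor; blue MMTV-Wnt1, red MMTV-Wnt/ILK), with the mean and SD of each group beside them and the range of the array lower quartiles in gray. Cxcl14, Cxcr6 and Ccl20 do not overlap between the groups. MMTV-Wnt1 tumor 3 is lowest for Ccl11, Ccl8 and Ccr2 and highest for Cxcl10, and MMTV-Wnt/ILK tumor 1 is highest for Cxcl15.

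Cxcl9, Cxcl10 and Cxcl11 are the interferon-induced ligands of Cxcr3, a receptor of activated T and NK cells. Cxcl10 was at 5.89, 6.31, 8.01 and 6.21 in MMTV-Wnt1 tumors 1 to 4 and at 5.85, 6.03, 6.38 and 6.06 in MMTV-Wnt/ILK tumors 1 to 4. MMTV-Wnt1 tumor 3 was above all others, and the other 7 tumors did not separate by group. The difference was -0.52 (SE 0.42, exact permutation test, p = 0.37) and -0.05 without that tumor. Cxcl11 was below the lower quartile in every tumor but MMTV-Wnt1 tumor 3, where it was at 5.89, and ran from 4.39 to 5.15 in the others. Cxcl9 did not set this tumor apart from all others. It was at 6.37 in MMTV-Wnt1 tumor 3 and from 5.59 to 6.06 in the rest of that group. MMTV-Wnt/ILK tumors 3 and 4 were at 6.28 and 6.44. The Cxcl9 difference was 0.04 (SE 0.23). Cxcr3 itself ran from 5.90 to 6.74 and from 6.18 to 6.87 and differed by 0.28 (SE 0.22). Interferon response genes had lower means with ILK in 5 of 5 measured genes. Their median log2 fold change was -1.09, with none at an unadjusted p under 0.05. Without MMTV-Wnt1 tumor 3 all 5 were still lower, with a median of -0.34 and 1 at an unadjusted p under 0.05. Of these genes, Mx1 and Mx2 lay above the lower quartile in 1 tumor each. The part of this list in the Cxcl10 difference was not tested.

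Across the 8 tumors Cxcl10 and the mean of 5 interferon response genes, Ifit1, Mx1, Mx2, Irf7 and Gbp2, had a Pearson r of 0.969 (exact permutation test, p = 0.0150, adjusted p = 0.285 over 19 relations) and a Spearman rho of 0.643 (exact permutation test, p = 0.0962, adjusted p = 0.546). Without the 2 tumors farthest from the median of Cxcl10, MMTV-Wnt1 tumor 3 and MMTV-Wnt/ILK tumor 1, r was 0.273. Without MMTV-Wnt1 tumor 3 alone it was 0.511, so the r over all 8 tumors depends strongly on that tumor. Within MMTV-Wnt1 tumors r was 0.973, and within MMTV-Wnt/ILK tumors it was 0.867. For Cxcl9 and the same list r was 0.352 and rho 0.0714 (exact permutation test, p = 0.494 and 0.882). Of the 19 relations between ligands and receptors or between chemokine genes and marker lists, 13 had a positive r and none passed an adjusted p of 0.05 in the exact permutation test, with 3 at an unadjusted p under 0.05. The other 2 were Ccl2 and Ccl9 with the list of 9 macrophage genes, at r = 0.730 and rho = 0.643 for Ccl2 (exact permutation test, p = 0.0471 and 0.0962, adjusted p = 0.298 and 0.546) and r = 0.704 and rho = 0.714 for Ccl9 (exact permutation test, p = 0.0464 and 0.0576, adjusted p = 0.298 and 0.546). Without the 2 tumors farthest from the median, r was 0.612 for Ccl2 and 0.367 for Ccl9.

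**Figure D3:**
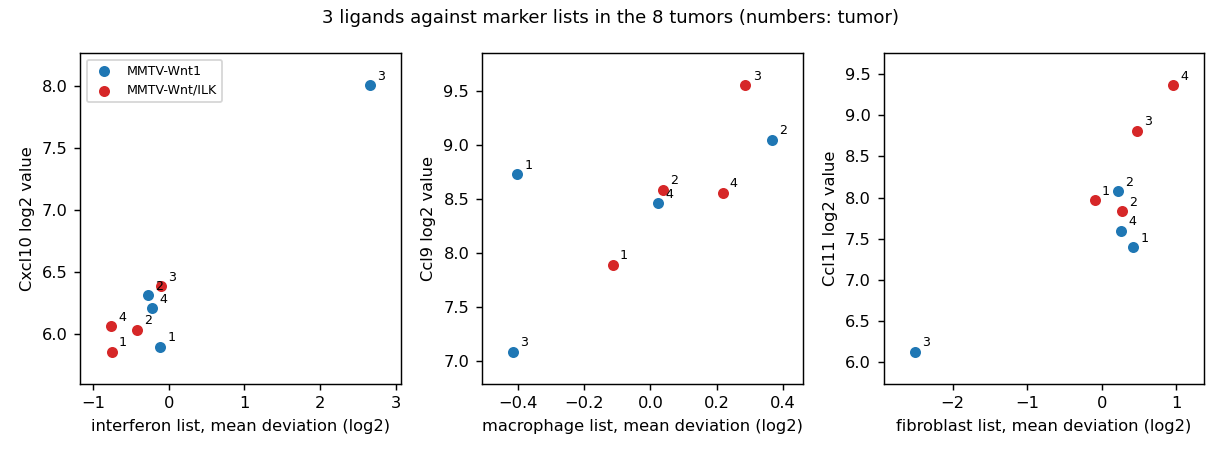
Log2 values of Cxcl10, Ccl9 and Ccl11 (vertical axes) against the mean log2 deviation of the interferon, macrophage and fibroblast lists (horizontal axes) in the 8 tumors, numbered within blue MMTV-Wnt1 and red MMTV-Wnt/ILK. MMTV-Wnt1 tumor 3 lies far from the others at 2.66 on the interferon axis and -2.51 on the fibroblast axis. The relation of Ccl11 to the fibroblast list was not tested.

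Cxcl1, Cxcl2, Cxcl5 and Cxcl15 belong to the CXC ligands that attract neutrophils. Cxcl1 was at 6.19, 6.36, 6.94 and 5.67 in MMTV-Wnt1 tumors 1 to 4 and at 5.47, 5.28, 6.88 and 5.22 in MMTV-Wnt/ILK tumors 1 to 4. The values of 3 of 4 MMTV-Wnt/ILK tumors lay below the MMTV-Wnt1 range and below the lower quartile of their arrays, with tumor 3 as the exception. The difference was -0.58 (SE 0.41, 95% interval -1.50 to 0.35). It was -0.97 without MMTV-Wnt/ILK tumor 3 (limma, unadjusted p = 0.0108) and -0.36 without MMTV-Wnt1 tumor 3. Cxcl2 was highest in MMTV-Wnt1 tumor 1, at 7.01, and ran from 5.56 to 6.39 in the other 7 tumors, with a difference of -0.23 (SE 0.32) that became 0.053 without that tumor. Neutrophil markers had lower means with ILK in 5 of 5 measured genes, with a median log2 fold change of -0.44, 1 of them, Elane, at an unadjusted p under 0.05, and Retnlg below the lower quartile in every tumor. Without MMTV-Wnt1 tumor 1, 3 of 5 were lower, the median was -0.015 and none was at an unadjusted p under 0.05. The mean level of this list ran from 5.22 to 6.72 in MMTV-Wnt1 tumors, where tumor 1 was the highest, and from 5.29 to 5.60 in MMTV-Wnt/ILK tumors, and its part in these differences was not tested.

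Cxcl15, known as lungkine for its place in mouse lung epithelium, had the widest range of the 37 genes, 7.10 on the log2 scale. It was at 5.02, 3.80, 5.51 and 6.46 in MMTV-Wnt1 tumors 1 to 4 and at 10.90, 7.82, 4.60 and 5.82 in MMTV-Wnt/ILK tumors 1 to 4. MMTV-Wnt/ILK tumors 1 and 2 lay above all others, while 4 of the 8 tumors lay below the lower quartile of their arrays. The mean difference of 2.09 (SE 1.23; exact permutation test, p = 0.23) became 0.88 without MMTV-Wnt/ILK tumor 1. Leaving out MMTV-Wnt/ILK tumor 3, where it was at 4.60, gave 2.98 (limma, unadjusted p = 0.0307). A further row annotated with both Cxcl3 and Cxcl15 was not used.

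Cxcl12 is the ligand of Cxcr4, an axis known for stem cell homing and tumor cell spread. Cxcl12 was at 8.12, 8.87, 8.55 and 6.43 in MMTV-Wnt1 tumors 1 to 4 and at 7.64, 9.44, 7.50 and 8.28 in MMTV-Wnt/ILK tumors 1 to 4. Cxcr4 was at 7.72, 8.64, 8.92 and 9.60 and at 8.78, 8.52, 8.42 and 8.81 in the same order. MMTV-Wnt1 tumor 4 had the lowest Cxcl12 and the highest Cxcr4 of the 8. The group differences were 0.22 for Cxcl12 (95% interval -1.12 to 1.57) and -0.09 for Cxcr4 (95% interval -0.89 to 0.72), within the spread between tumors. Their r across the tumors was -0.453 and rho -0.167 (exact permutation test, p = 0.241 and 0.703), and r was 0.207 without MMTV-Wnt1 tumor 4 and MMTV-Wnt/ILK tumor 2.

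Cxcl16 and Cx3cl1 are the chemokines made as membrane-bound forms, and Cxcr6 and Cx3cr1 are their receptors. Cxcl16 was at 9.32, 10.14, 9.81 and 9.88 in MMTV-Wnt1 tumors 1 to 4 and at 9.58, 9.39, 10.18 and 9.63 in MMTV-Wnt/ILK tumors 1 to 4, with overlapping groups and a difference of -0.09 (95% interval -0.62 to 0.43). Cxcr6, carried by T and NKT cells, was at 4.92, 6.16, 6.23 and 6.16 in MMTV-Wnt1 tumors 1 to 4 and at 6.83, 6.29, 6.78 and 6.75 in MMTV-Wnt/ILK tumors 1 to 4. The groups were separate, higher with ILK, and MMTV-Wnt1 tumor 1, below the lower quartile of its array, stood apart from its group. The means were 5.87 ± 0.63 (SD, n = 4) and 6.66 ± 0.25 (SD, n = 4), which gave 0.79 or 1.73-fold (SE 0.31, 95% interval 0.10 to 1.49; limma, unadjusted p = 0.0296 and adjusted p = 0.905; exact permutation test, p = 0.029). Without MMTV-Wnt1 tumor 1 the difference was 0.48 (limma, unadjusted p = 0.0227). The unadjusted p from limma was above 0.05 without MMTV-Wnt/ILK tumor 1, 3 or 4, at log2 fold changes of 0.74, 0.75 and 0.76. Of 6 T cell markers, 4 had a higher and 2 a lower mean, with none at an unadjusted p under 0.05 and Cd3d below the lower quartile in every tumor. Without MMTV-Wnt/ILK tumor 2, 2 of the 6 means were higher. The mean level of that list ran from 5.98 to 6.39 in MMTV-Wnt1 and from 5.81 to 6.69 in MMTV-Wnt/ILK tumors, and its part in the Cxcr6 difference was not tested.

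Cx3cl1, or fractalkine, was at 8.70, 8.45, 9.18 and 8.71 in MMTV-Wnt1 tumors 1 to 4 and at 9.18, 9.41, 8.98 and 8.96 in MMTV-Wnt/ILK tumors 1 to 4. MMTV-Wnt1 tumor 3 lay inside the MMTV-Wnt/ILK range and the other MMTV-Wnt1 tumors below it. The Cx3cl1 difference was 0.37 (95% interval -0.07 to 0.81, exact permutation test p = 0.11). It was 0.51 without MMTV-Wnt1 tumor 3 (limma, unadjusted p = 0.0213) and 0.27 without MMTV-Wnt1 tumor 2. Its receptor Cx3cr1, carried by monocytes and macrophages, was at 8.33, 8.86, 8.39 and 8.82 and at 8.08, 9.16, 8.61 and 8.29 in the same order, with a difference of -0.06 (95% interval -0.64 to 0.52).

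Among the other receptors, Ccr2, which brings monocytes out of the bone marrow, was at 6.51, 6.77, 5.46 and 6.67 in MMTV-Wnt1 tumors 1 to 4 and at 6.23, 7.34, 7.60 and 7.13 in MMTV-Wnt/ILK tumors 1 to 4. In 3 of 4 MMTV-Wnt/ILK tumors it lay above the MMTV-Wnt1 range, and MMTV-Wnt1 tumor 3 was the lowest. It differed by 0.72 (SE 0.37, 95% interval -0.12 to 1.56; exact permutation test, p = 0.14), by 0.43 without MMTV-Wnt1 tumor 3 and by 1.00 without MMTV-Wnt/ILK tumor 1 (limma, unadjusted p = 0.0169). Of 9 macrophage markers, 7 had a higher and 2 a lower mean, none at an unadjusted p under 0.05. Their median log2 fold change was 0.19. Without MMTV-Wnt1 tumor 3 it was 0.042, with 1 higher gene at an unadjusted p under 0.05. The mean level of the list ran from 8.72 to 9.50 in MMTV-Wnt1 and from 9.02 to 9.42 in MMTV-Wnt/ILK tumors. Ccr1, a receptor of monocytes and neutrophils, was at 6.16, 7.29, 6.02 and 6.93 and at 5.62, 6.92, 7.16 and 6.59, with a difference of -0.03 (95% interval -0.92 to 0.87). Ccr7, which leads dendritic cells and naive T cells to lymph nodes, was at 6.92, 6.85, 6.77 and 7.97 and at 6.78, 6.89, 7.48 and 6.90, with MMTV-Wnt1 tumor 4 apart from its group and a difference of -0.12 (SE 0.29), or 0.16 without that tumor. Ccr6, the receptor of Ccl20, lay above the lower quartile in 1 tumor, and Cxcr5 in none. The 10 receptors had a median log2 fold change of -0.05, with 4 means higher and 6 lower.

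None of the remaining ligands was at an unadjusted p under 0.05 in limma. Ccl20, which attracts Ccr6-bearing lymphocytes and immature dendritic cells, was at 6.36, 6.10, 6.11 and 6.40 in MMTV-Wnt1 tumors 1 to 4 and at 6.09, 6.08, 5.95 and 5.97 in MMTV-Wnt/ILK tumors 1 to 4. All MMTV-Wnt/ILK values lay below all MMTV-Wnt1 values, yet the closest values of the groups were 6.09 and 6.10, and the difference was -0.22 (SE 0.14, 95% interval -0.53 to 0.09; limma, unadjusted p = 0.146; exact permutation test, p = 0.029). Ccl28, an epithelial ligand that draws antibody-secreting cells to the lactating gland, was at 7.57, 8.60, 7.26 and 6.86 and at 6.98, 7.29, 6.35 and 7.69, with a difference of -0.49 (95% interval -1.41 to 0.42) that became -0.15 without MMTV-Wnt1 tumor 2, its highest. Ccl17 and Ccl22, ligands of Ccr4, differed by 0.16 and 0.09 (SE 0.22 and 0.21), and Ccl17 by 0.029 without MMTV-Wnt1 tumor 2. Ccl22 was highest in MMTV-Wnt/ILK tumor 3, at 6.46, and ran from 5.54 to 6.04 in the others. Ccl25, a thymus and gut ligand, lay above the lower quartile in 5 tumors, Xcl1, a ligand of cross-presenting dendritic cells, in 6, and Cxcl13, the B cell ligand of Cxcr5, in 2, with differences of -0.18, 0.17 and 0.10. Without MMTV-Wnt/ILK tumor 2, where it was highest, Xcl1 differed by 0.020.

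**Figure D4:**
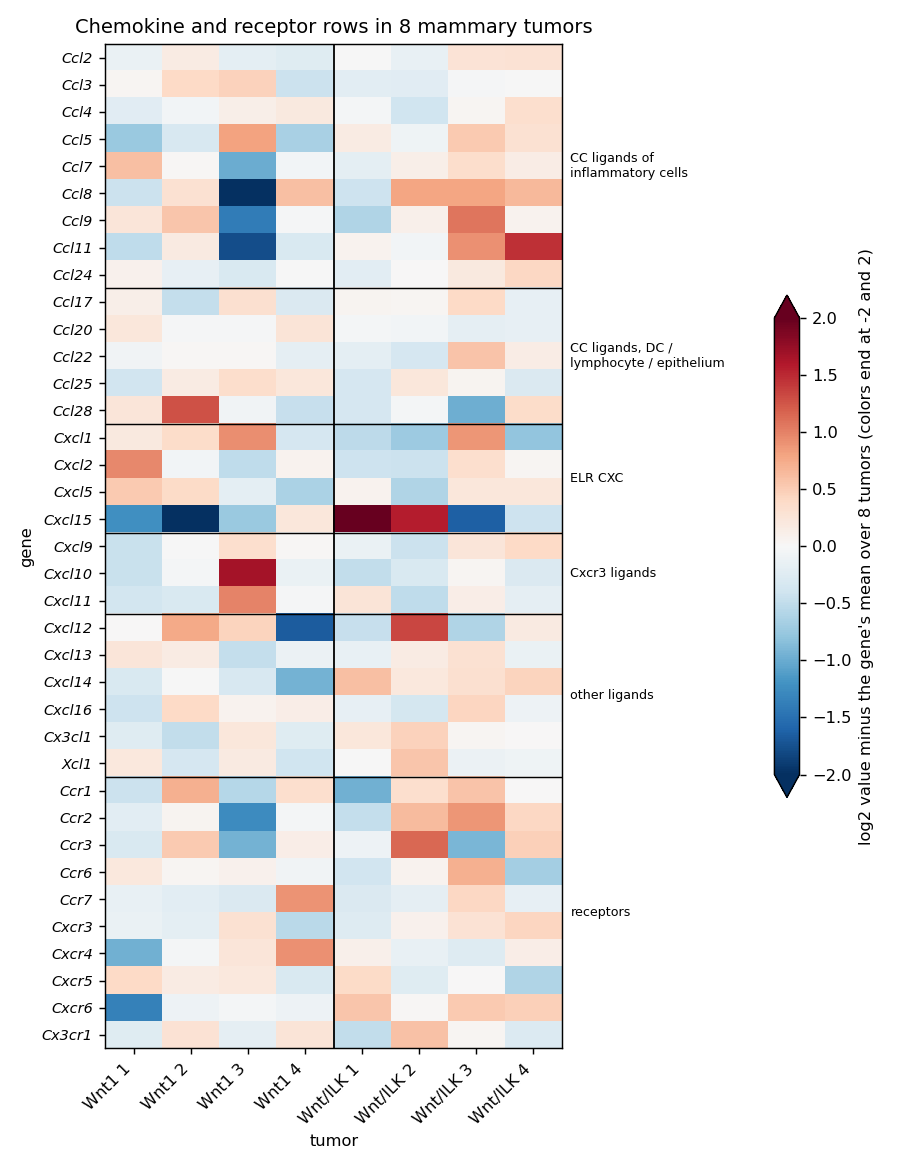
Log2 values of the 37 genes in the 8 tumors, each minus the gene's mean over the tumors (color, ending at -2 and 2), with genes ordered by role and tumors by group. MMTV-Wnt1 tumor 3 shows low Ccl7, Ccl8, Ccl9, Ccl11 and Ccr2 beside high Ccl5, Cxcl10 and Cxcl11, and Cxcl14 lies above its mean in all MMTV-Wnt/ILK tumors.

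In the wider pathway, 4 of 51 measured genes, or 7.84%, were at an unadjusted p under 0.05, beside 5.11% of all rows. Of 6 further ligands, 6 further receptors and 5 atypical receptors, which take up chemokines without signaling through G proteins, none was at an unadjusted p under 0.05. Cxcl17, a mucosal ligand, was at 7.39, 10.46, 7.04 and 9.74 in MMTV-Wnt1 tumors 1 to 4 and from 7.23 to 7.82 in MMTV-Wnt/ILK tumors, with MMTV-Wnt1 tumors 2 and 4 above all others. Its difference was -1.24 (SE 0.72). It shrank to -0.64 without MMTV-Wnt1 tumor 2 and to -0.88 without MMTV-Wnt1 tumor 4 (limma, unadjusted p = 0.318 and 0.276). Without MMTV-Wnt1 tumor 3 it was -1.78 (limma, unadjusted p = 0.0261 and adjusted p = 0.979). Of 18 genes of receptor signaling, 1 was higher and 1 lower at an unadjusted p under 0.05. The higher one was Arrb1, whose beta-arrestin 1 silences activated receptors, at a log2 fold change of 0.79 (SE 0.21). Its groups overlapped, with MMTV-Wnt/ILK tumor 3 at 10.67 and MMTV-Wnt1 tumor 1 at 10.71 (exact permutation test, p = 0.057). The lower one was Rgs1, which shortens G protein signaling in lymphocytes, at 5.44 ± 0.29 (SD, n = 4) and 4.72 ± 0.18 (SD, n = 4). It lay below the lower quartile in all MMTV-Wnt/ILK tumors and in MMTV-Wnt1 tumors 1 and 2. Of the same 18 genes, the groups did not overlap for Rgs1, lower with ILK, and Plcb3, higher, where 2.9% of all rows do not overlap. Plcb3 differed by 0.29 (SE 0.14; limma, unadjusted p = 0.0694; exact permutation test, p = 0.029). Of 5 genes of chemokine processing, Mmp2, a protease able to cleave Ccl7 and Cxcl12, was higher at an unadjusted p under 0.05. Its log2 values were 9.56, 9.81, 8.55 and 9.76 in MMTV-Wnt1 tumors 1 to 4 and 10.01, 10.33, 10.07 and 10.67 in MMTV-Wnt/ILK tumors 1 to 4, without overlap and with MMTV-Wnt1 tumor 3 the lowest. The Mmp2 difference of 0.85 (SE 0.30) was 0.56 without MMTV-Wnt1 tumor 3. Leaving out tumor 4 of MMTV-Wnt/ILK gave 0.71 (limma, unadjusted p = 0.0581). Of 11 upstream regulators, Rela, the NF-kB subunit p65, was higher in the same sense, at 9.46 ± 0.08 (SD, n = 4) and 9.77 ± 0.12 (SD, n = 4). Its unadjusted p was above 0.05 without MMTV-Wnt1 tumor 3 or 4 or MMTV-Wnt/ILK tumor 1, 3 or 4. The same held after centring arrays on their medians (limma, unadjusted p = 0.117) and after quantile normalization was run again (limma, unadjusted p = 0.063). With tumor number as a block it was 0.078 (limma, unadjusted p). Il6 and Ifnb1 were below the lower quartile in every tumor. The adjusted p in limma was 0.905 for Arrb1, Rgs1, Mmp2 and Rela.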

How the data were processed

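The deposited table holds 23332 rows of log2 values for 8 tumors. The authors made them from Affymetrix Mouse Exon 1.0 ST arrays with the RMA algorithm of ArrayAssist and applied quantile normalization between chips. Paper and labels name different versions of that program, and the log base was read off how far the values reach. Array medians still ran from 6.89 to 7.23, and the number of pairs of identical arrays was 0. Rows were named through the platform annotation, of which 14996 carry exactly 1 gene, 1019 several and 7317 none. Sample titles gave the group and number of each tumor. The study describes the tumors as independent. With 4 arrays per group, precision is limited by their number.

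MMTV-Wnt/ILK was compared with MMTV-Wnt1 with limma 3.58.1 in R 4.3.3 on every row, without covariates or a filter on low values, and p-values were adjusted after Benjamini and Hochberg. The study names no test for the arrays. Single genes also have an exact 2-sided permutation test over 70 assignments, whose smallest p is 0.029. Relations across tumors were tested over all 40320 pairings. Simulated data with known changes were used to test the limma fit. List means are averages of each gene's deviation from its mean over the tumors.

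The genes, lists and tests were chosen with earlier results of these data known. Values in every tumor are given for genes at an unadjusted limma p under 0.05, with groups that do not overlap, with a tumor that stands apart, or with the widest ranges or highest values among ligands and receptors, and for some others chosen after their values were seen. Counts of rows and genes and the difference of each gene were recomputed without each tumor in turn, with array weights, with a robust variance trend, with a plain equal-variance test of each row, after centring arrays on their medians, after quantile normalization was run again, with tumor number as a block, on 1-gene rows alone, and with the dimmest 25% of rows removed. Relations and the expression threshold were recomputed under the fewer settings that apply to them, and the marker lists and wider pathway genes were set against the same fits after the data were seen. The mean of a gene's rows gave no other value, since no gene had several.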

Additional observations from a re-analysis of the deposited data

Results flagged for a closer look

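In 6 of 74 groups of 4 tumors, 1 tumor lay far from the other 3. Its gap to the nearest of them took up more of the range of the group than a Dixon test at 95% allows. Chance alone gives about 1 in 20, or 3.7 here. In MMTV-Wnt/ILK tumors, Ccl8 was low in tumor 1 (7.12, the others from 8.18 to 8.32), Cxcl1 was high in tumor 3 (6.88, the others from 5.22 to 5.47), Xcl1 was high in tumor 2 (6.46, the others from 5.80 to 5.91) and Cxcr6 was low in tumor 2 (6.29, the others from 6.75 to 6.83). In MMTV-Wnt1 tumors, Ccr7 was high in tumor 4 (7.97, the others from 6.77 to 6.92) and Cxcr6 was low in tumor 1 (4.92, the others from 6.16 to 6.23).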

How the results depend on the processing

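The count of 1193 rows at an unadjusted p under 0.05 was 2607 with array weights, 662 among rows with exactly 1 gene, where fewer rows are tested, and between 727 (MMTV-Wnt/ILK tumor 4) and 2010 (MMTV-Wnt1 tumor 1) with 1 tumor left out. For array weights the cause was not tested. Rows at an adjusted p under 0.05 in limma numbered 0 to 13 with 1 tumor left out, 13 of them without MMTV-Wnt/ILK tumor 2, and no chemokine or receptor gene did in any of the 16 alternative fits. The 3 genes at an unadjusted p under 0.05 became 1 to 4 when each tumor was left out, with 1 without MMTV-Wnt/ILK tumor 4. The median log2 fold change of the genes ran from -0.01 without MMTV-Wnt/ILK tumor 3 to 0.17 without MMTV-Wnt/ILK tumor 1. With the array median as threshold, 6 in place of 20 genes were above it in all tumors, and 29 were above the lower quartile in at least 4. Of the 37 log2 fold changes, 20 kept their sign under every alternative. The others, none at an unadjusted p under 0.05, changed it when a tumor was left out, over these ranges: Ccl4 -0.14 to 0.10, Ccl7 -0.076 to 0.45, Ccl9 -0.10 to 0.57, Ccl22 -0.080 to 0.23, Cxcl2 -0.43 to 0.053, Cxcl5 -0.25 to 0.16, Cxcl9 -0.097 to 0.19, Cxcl11 -0.29 to 0.16, Cxcl12 -0.30 to 0.51, Cxcl13 -0.049 to 0.19, Cxcl16 -0.25 to 0.026, Ccr1 -0.23 to 0.29, Ccr3 -0.036 to 0.65, Ccr6 -0.40 to 0.067, Ccr7 -0.27 to 0.16, Cxcr4 -0.42 to 0.21, Cx3cr1 -0.27 to 0.086. With array weights, Ccl4 was at 0.017 and Cxcl5 at 0.18. With an equal-variance test per row, Ccl11 (unadjusted p = 0.0732 over rows) and Cxcr6 (0.0588) no longer passed and Ccl20 did (0.0460). Of 19 relations, 7 kept their sign. The r of the others ran, without each tumor: Cxcl12 and Cxcr4 -0.661 to 0.127, Cxcl16 and Cxcr6 -0.12 to 0.55, Cx3cl1 and Cx3cr1 -0.728 to 0.248, Ccl20 and Ccr6 -0.329 to 0.558, Cxcl13 and Cxcr5 -0.113 to 0.383, Ccl22 and Ccr7 -0.234 to 0.812, Cxcl9 and interferon -0.248 to 0.591, Cxcl12 and fibroblast -0.274 to 0.0985, Cxcl13 and B cell -0.0521 to 0.822, Ccr7 and T cell -0.295 to 0.0923, Cxcr4 and T cell -0.336 to 0.0923, Cxcl14 and basal epithelium -0.74 to 0.149. On deviations from the group means, r was 0.0368 for Cx3cl1 and Cx3cr1 and -0.124 for Ccl20 and Ccr6. For Cxcl16 and Cxcr6, r was 0.422 over all 8 tumors. It was 0.738 on those deviations (exact permutation test, unadjusted p = 0.0486 and adjusted p = 0.383). On the deviations, 0 of the 19 relations passed an adjusted p of 0.05 in the exact permutation test. Without MMTV-Wnt1 tumor 1, Cxcl10 with the interferon list (r = 0.993) and Ccl9 with the macrophage list (r = 0.938) passed an adjusted p of 0.05 (exact permutation test, adjusted p = 0.0245 for both). Tumors of the same number in the groups deviated together at r = 0.107, 0.132, 0.155 and -0.004, and the 12 pairs of other numbers at -0.238 to 0.134, with 3 of 4 and 2 of 12 above 0.1. Since 1 same-numbered pair was not above 0.1 and no source ties the numbers to a litter, batch or day, the numbers were not taken as pairs. With the replicate block 1485 rows and 3 genes were at an unadjusted p under 0.05, Cxcl1 replacing Ccl11. Genes near the lower quartile limit what these arrays can show.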
